A study of Mus musculus with 88 samples.

Results

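A set of regulators of the anaphase-promoting complex (APC/C) were followed in single fully grown germinal vesicle (GV) oocytes of young and aged mice. The 10 genes were 10 of the 38540 features of an oocyte transcriptome over which reads were counted, and each gene was taken as the feature that carries its name or, failing that, the feature that best overlaps its GENCODE M21 gene on the same strand. The genes comprised the coactivators Fzr1 and Cdc20, the inhibitors Fbxo5 and Fbxo43, the core subunits Cdc27, Cdc16, Anapc1 and Anapc10, and the ubiquitin-conjugating enzymes Ube2c and Ube2s. Oocytes came from virgin C57BL/6Babr females with no treatment or engineered allele, aged 12 weeks in the young group (42 oocytes) and 44 to 54 weeks in the aged group (46 oocytes, 45 of them used, called old in the labels). Polyadenylated RNA of each oocyte was captured on oligo-dT beads and converted to cDNA with Smart-seq2, while the DNA of the same oocyte was set aside.

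The APC/C is a ubiquitin ligase that marks cyclin B and securin for destruction and so drives a cell out of metaphase. It works only with a coactivator, Cdh1 (encoded by Fzr1) or Cdc20, and it receives ubiquitin from UBE2C, which starts a chain, and UBE2S, which extends it. In the mouse oocyte APC/C with Cdh1 helps to hold the GV stage by keeping cyclin B low, EMI1 (Fbxo5) restrains it, APC/C with Cdc20 acts at the exit from meiosis I, and EMI2 (Fbxo43) keeps the APC/C inactive at metaphase II until fertilisation. A fully grown GV oocyte holds a store of transcripts that is drawn on in those later steps. The paper describes the NSN form of GV oocytes (defined below) as still active in transcription. The transcripts measured here can therefore include newly made RNA.

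Levels are CPM, the summed counts of a gene in a group of oocytes per 1000000 of the summed total counts. The mouse of each oocyte is not named in the labels, so each age group counted as 1 sample, no test was run, and SDs over oocytes describe single oocytes and not animals. The 95% intervals are exact for reads taken as independent counts, and do not cover differences between oocytes or mice. The reads carry no molecular identifiers, so amplified copies count separately and the intervals can be too narrow even for counting error. Total counts were 1579196 to 8231046 per young oocyte and 976456 to 5448310 per aged oocyte. Chromatin configuration, NSN (non-surrounded nucleolus) or SN (surrounded nucleolus, the more condensed and transcriptionally silent form), was the prediction that the study made from transcripts of these same oocytes. The paper holds it likely that this classification departs from the true chromatin state. The prediction placed 30 young and 37 aged oocytes in NSN and 12 and 8 in SN, and 1 aged oocyte without a prediction was left out. Of 10 oocyte markers 9 were found, with summed levels from 18210 to 31570 CPM in young and from 11410 to 31610 CPM in aged oocytes. Markers of granulosa and cumulus cells summed to 31.1 to 92.4 CPM per young oocyte and 24.9 to 124.5 CPM per aged oocyte. Most of this came from Nr5a2 and Kitl. Inha followed at 6.43 CPM (young) and 5.20 CPM (aged), with counts in 40 young and 35 aged oocytes. Its SDs over oocytes, 6.91 and 9.64 CPM, exceeded these levels. Hsd17b1 stood at 2.0 and 1.1 CPM and Fshr at 0.68 and 0.42 CPM. Foxl2 and Amh had at most 0.113 CPM at either age. Blood and vessel markers, mostly Pecam1, reached 98.7 CPM (young) and 94.05 CPM (aged). Theca and stroma markers reached 4.02 CPM (young) and 8.23 CPM (aged). The part of these markers in the results was not tested.

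All 10 genes had counts in each of the 87 oocytes. Per kilobase of the longest principal transcript, which is the scale for comparing genes, Ube2c was the most abundant at 119 CPM per kb over all oocytes. It was followed by Cdc20 at 93.3, Fbxo5 at 78.8, Cdc27 at 70.9, Fzr1 at 60.6, Fbxo43 at 45.8 and Ube2s at 37.1 CPM per kb. The core subunits Cdc16, Anapc1 and Anapc10 were lowest at 15.1, 14.9 and 10.7 CPM per kb. Neighbours in this order overlapped in single oocytes: Cdc16 exceeded Anapc1 in 48 of 87 oocytes, Cdc27 exceeded Fzr1 in 55 and Ube2c exceeded Cdc20 in 70, whereas Ube2s exceeded Cdc16 in 85. The order was the same in young and aged oocytes apart from Cdc16 and Anapc1, which stood at 15.5 and 15.6 CPM per kb in young oocytes. With the union of all annotated exons as the length, Ube2s moved to the ninth place at 9.55 CPM per kb and Anapc10 to the seventh at 14.4.

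**Figure D1:**
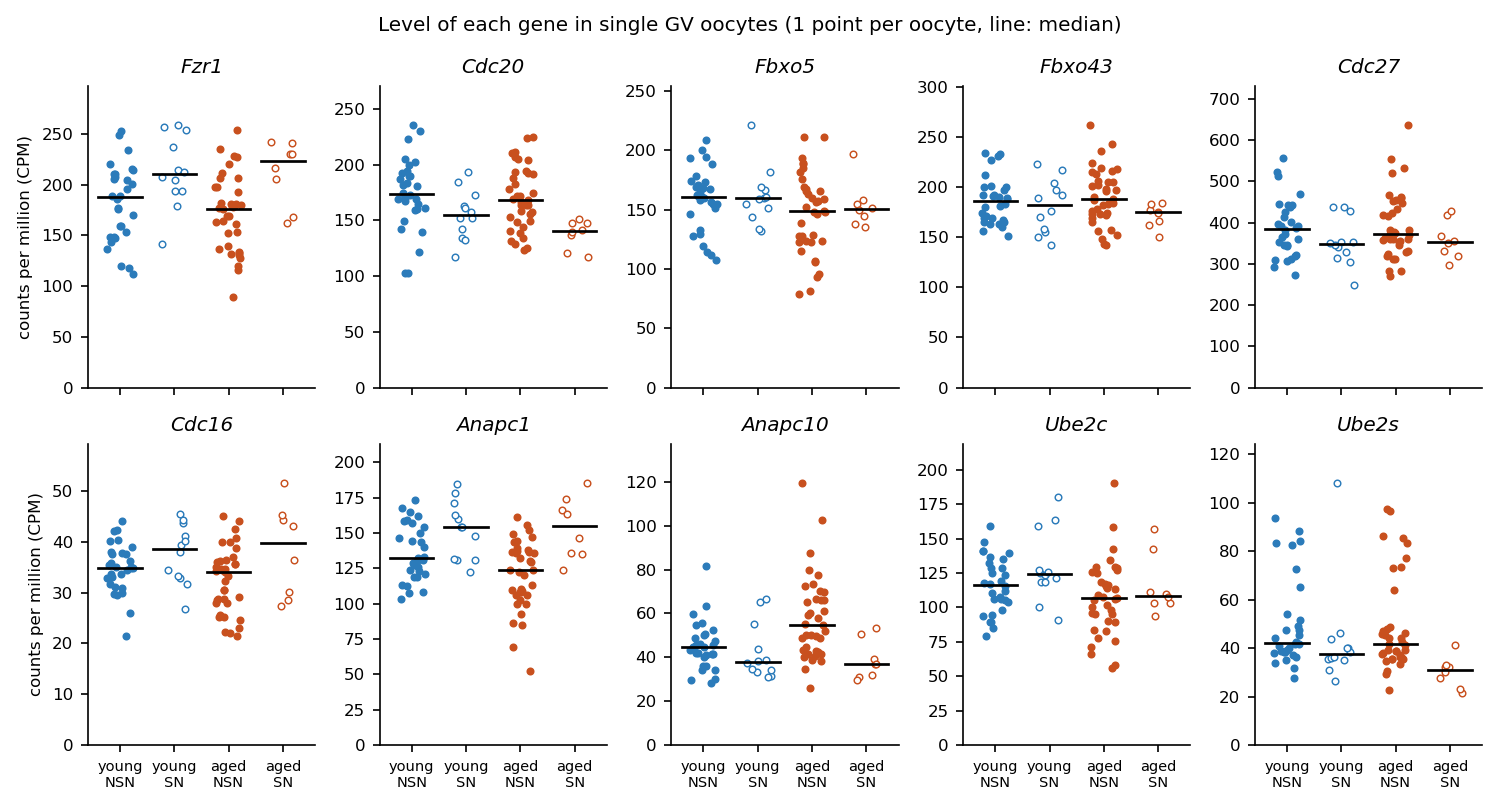
Level of each of the 10 genes in single GV oocytes, in CPM on a linear axis from 0, with 1 point per oocyte (30 young NSN, 12 young SN, 37 aged NSN, 8 aged SN) and a line at the median. Aged and young oocytes overlap for every gene, and the 8 aged SN oocytes lie below the aged NSN median for Cdc20, Fbxo43, Anapc10 and Ube2s and above it for Anapc1.

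Fzr1 (TCONS_00012901, chr10:81366222-81378516 on the minus strand, GRCm38) encodes the coactivator of the GV arrest. The study's list of names gives this feature to Mfsd12, a gene on the opposite strand that overlaps it by 4 bases, but its span equals that of Fzr1. Young oocytes held 112 to 258.5 CPM of Fzr1 with a median of 195 CPM, and aged oocytes 89.4 to 253.9 CPM with a median of 179 CPM. The groups covered nearly the same range, and the pooled level was 191 CPM (188.3 to 193.0) in the young and 179 CPM (177 to 182) in the aged group, which gives a log2 ratio, aged over young, of -0.089 (-0.12 to -0.063). The predicted configuration went with a larger difference than age. This was also so over features with a mean count of at least 10. Between SN and NSN 22.1% of them in young and 43.5% in aged oocytes were past 1.2-fold, against 8.13% between ages. In young oocytes Fzr1 was at 180 CPM in NSN and 217 CPM in SN, a log2 ratio of 0.26 (0.23 to 0.30), and 10 of 12 SN oocytes exceeded the NSN median. In aged oocytes it was at 171 CPM in NSN and 219 CPM in SN, a log2 ratio of 0.36 (0.31 to 0.41), and 6 of 8 SN oocytes exceeded the NSN median.

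Cdc20 (TCONS_00074819, chr4:118432901-118437391, minus strand) encodes the coactivator that acts from metaphase onwards. Its feature overlaps Elovl1 on the opposite strand by 53 bases, and the strand setting of the counts is not stated, so reads in that overlap cannot be told apart. Single oocytes ranged from 103.0 to 235 CPM in the young group (median 169 CPM) and from 117 to 225 CPM in the aged group (median 164 CPM). The pooled levels, 168 CPM at 12 weeks and 166 CPM in the aged group, gave a log2 ratio of -0.021 (-0.049 to 0.0070), an interval that includes 0. Between configurations Cdc20 went the opposite way to Fzr1. It was at 172 CPM in young NSN and 158 CPM in young SN oocytes, a log2 ratio, SN over NSN, of -0.12 (-0.17 to -0.080), and at 172 CPM in aged NSN and 138 CPM in aged SN oocytes, a log2 ratio of -0.31 (-0.37 to -0.26). Over 9 values that each left out a group of oocytes by number, the young ratio ranged from -0.22 to -0.015. It was -0.015 without young oocytes numbered 33-39, and -0.021 without oocytes numbered 33-48 with the suffix A in their names. All 8 aged SN oocytes, at 117 to 151 CPM, lay below both the aged NSN median of 169 CPM and the young SN median of 155 CPM.

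Stored oocyte mRNAs are often regulated through short elements near the 3′ end: the poly(A) signal, and the cytoplasmic polyadenylation element (CPE) that CPEB binds to lengthen the tail during maturation. The sense strand of the last 100 bases of the annotated GENCODE M21 transcript was searched for the letters TTTTAT and TTTTAAT (CPE) and AATAAA and ATTAAA (poly(A) signal) in the 6 genes whose feature ended at a transcript end. Cdc20 was the only one of the 6 with a CPE, which 21.3% of 5987 protein-coding features with a matched end also had. It held 2 copies of TTTTAT that share a base, the second starting 35 bases from the end, followed by AATAAA. Fbxo43, Cdc16, Anapc1 and Ube2c had a poly(A) signal without a CPE, and Fzr1 had neither in this window. The sites of Cdc20, Fbxo43 and Ube2c are printed to show the Cdc20 element beside ends that lack it, with the elements in capitals, from chr4:118432912-118432941 on the minus strand, chr15:36150062-36150091 on the minus strand and chr2:164772872-164772901 on the plus strand.
Cdc20: tTTTTATTTTATtttttctAATAAAgttcg
Fbxo43: ctaataATTAAAtttaaaatttacatattt
Ube2c: atATTAAATAAAtacacattgattgttttg

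The balance of the coactivators was read as a count ratio, pooled over a group and also within each oocyte. Within an oocyte it does not depend on the total count, while the pooled ratio gives oocytes with more reads more weight. In young NSN oocytes the pooled count ratio of Fzr1 to Cdc20 was 1.04, and in young SN oocytes it was 1.37. In aged NSN oocytes it was 0.993, and in aged SN oocytes 1.59. On the log2 scale the medians over oocytes were 0.092 and 0.49 in young NSN and SN, and 0.0091 and 0.70 in aged NSN and SN, with SDs over oocytes of 0.29 to 0.35 in the 4 groups. The ratio exceeded the NSN median in 9 of 12 young SN oocytes and in 8 of 8 aged SN oocytes. Between young and aged oocytes as a whole the ratio was close, 1.13 and 1.08. Per kilobase the ratio was below 1 in every group, from 0.583 in aged NSN to 0.930 in aged SN oocytes, so Cdc20 was the more abundant coactivator transcript per length.

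**Figure D2:**
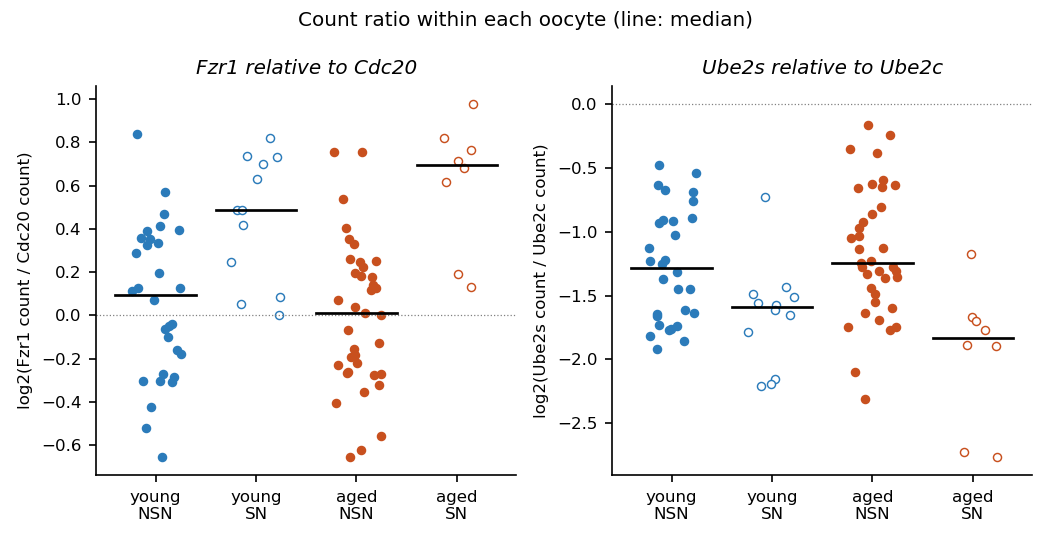
Log2 count ratio of Fzr1 to Cdc20 (left) and of Ube2s to Ube2c (right) in each oocyte, by age and configuration, with a line at the median and a dotted line at equal counts. The 8 aged SN oocytes all exceed the aged NSN median of 0.0091 for Fzr1 over Cdc20, and 7 of the 8 lie under the aged NSN median for Ube2s over Ube2c.

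Fbxo5 (TCONS_00011185, chr10:5797832-5805951, minus strand) encodes EMI1, and its feature runs 1328 bases past the annotated 3′ end. Young oocytes ranged from 107.5 to 221 CPM (median 160 CPM) and aged oocytes from 79.1 to 211.5 CPM (median 150 CPM), so the aged group reached lower and the upper ends were alike. Pooled levels were 158 and 146 CPM, a log2 ratio of -0.11 (-0.14 to -0.085). The ratio was -0.019 among oocytes with the suffix A in their names and -0.22 among those without it. Over 12 values that each left out a group of oocytes by number it ranged from -0.15 to -0.054. It was -0.063 without the oocytes numbered 17-31 that have no suffix. Between SN and NSN the log2 ratio was -0.024 (-0.068 to 0.019) in young and 0.045 (-0.012 to 0.10) in aged oocytes, and both intervals include 0.

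Fbxo43 (TCONS_00038877, chr15:36150060-36169839, minus strand, starting 4955 bases upstream of the annotated gene) encodes EMI2, the factor that maintains the metaphase II arrest. It had nearly equal pooled levels at both ages, 185 CPM in young (182.6 to 187.2) and 185 CPM in aged oocytes (182.3 to 187.4), with a log2 ratio of -0.00048 (-0.027 to 0.026). This pooled value joined opposite differences. The ratio was 0.14 among oocytes numbered 1-16, 0.042 among those numbered 17-31 and -0.13 among those numbered 33-48. Single oocytes ranged from 142 to 234 CPM in young (median 186 CPM) and from 142 to 262 CPM in aged oocytes (median 183 CPM). In SN over NSN the log2 ratio was -0.0050 (-0.045 to 0.035) in young and -0.15 (-0.20 to -0.095) in aged oocytes. All 8 aged SN oocytes, at 149.8 to 185 CPM, were below the aged NSN median of 188 CPM. Fbxo43 outnumbered Fbxo5 by a pooled count ratio of 1.17 in young and 1.26 in aged oocytes, but per kilobase the ratio was 0.561 and 0.607.

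Cdc27 (TCONS_00020426, chr11:104502514-104550651, minus strand) and Cdc16 (TCONS_00096282, chr8:13757642-13781938, plus strand) encode subunits of the arm that receives the coactivators. Cdc27 ranged from 249.5 to 556 CPM in young oocytes (median 362.5 CPM) and from 269 to 636 CPM in aged oocytes (median 368 CPM), and the pooled log2 ratio was 0.041 (0.023 to 0.059). It was lower in SN than in NSN oocytes at both ages, with log2 ratios of -0.20 (-0.23 to -0.17) in young and -0.18 (-0.22 to -0.15) in aged oocytes. Over 9 values that each left out a group of oocytes by number, the young ratio ranged from -0.29 to -0.082. It was -0.082 without the oocytes numbered 1-16 that have no suffix A in their names. The ratio of medians in aged oocytes was also -0.082. Cdc16 was a low transcript, from 21.4 to 45.5 CPM in young (median 35 CPM) and from 21.4 to 51.6 CPM in aged oocytes (median 34.4 CPM). The pooled log2 ratio of Cdc16 between ages was -0.089 (-0.15 to -0.027), while its SN over NSN ratios were 0.12 (0.027 to 0.21) in young and 0.25 (0.13 to 0.36) in aged oocytes. The aged value was 0.023 without the oocytes numbered 33-48 that have no suffix A in their names, from 32.7 CPM in SN and 32.2 CPM in NSN.

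Anapc1 (TCONS_00061937, chr2:128610104-128687629, minus strand) encodes the scaffold subunit, and 196 of its bases overlap an unnamed feature on the opposite strand. It ranged from 104 to 185 CPM in young oocytes (median 137 CPM) and from 52.2 to 185.5 CPM in aged oocytes (median 130.0 CPM), with a pooled log2 ratio of -0.13 (-0.17 to -0.10). The ratio was -0.54 among oocytes numbered 33-48 with the suffix A in their names and -0.053 without them. In SN oocytes Anapc1 was higher than in NSN at both ages: 148 against 136 CPM in young, a log2 ratio of 0.13 (0.082 to 0.17), and 152 against 121 CPM in aged oocytes, a log2 ratio of 0.33 (0.27 to 0.39). Over 9 values that each left out a group of oocytes by number, the young ratio ranged from 0.027 to 0.24. It was 0.027 without young oocytes numbered 33-39. All 8 aged SN oocytes, at 124 to 185.5 CPM, were above the aged NSN median of 123.7 CPM, though the lowest of them, at 123.9 CPM, was at its edge.

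Anapc10 (TCONS_00097624, chr8:79711768-79777634, plus strand, ending 1425 bases short of the annotated 3′ end) encodes the subunit that recognises destruction boxes together with the coactivator. It was the only one of the 10 genes past 1.2-fold between ages, where 8.13% of 12408 features with a mean count of at least 10 were past that fold in either direction. Young oocytes ranged from 28.4 to 81.4 CPM (median 42.7 CPM) and aged oocytes from 26.1 to 119.5 CPM (median 50.2 CPM), with 30 of 45 aged oocytes above the young median. The pooled level was 44.2 CPM (43.1 to 45.3) in the young and 55.3 CPM (53.9 to 56.7) in the aged group, which gives a log2 ratio of 0.32 (0.27 to 0.38), at percentile 99.0 of those features. In NSN oocytes alone the log2 ratio was 0.36 (0.30 to 0.41), and in SN oocytes alone -0.020 (-0.15 to 0.11). Anapc10 was lower in SN than NSN, by a log2 ratio of -0.20 (-0.28 to -0.11) in young and -0.57 (-0.68 to -0.46) in aged oocytes. The young value was -0.028 with each oocyte thinned to 900000 counts. Over 9 values that each left out a group of oocytes by number it ranged from -0.31 to -0.067, the latter without young oocytes numbered 17-24.

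The names of the oocytes fall into 3 blocks of numbers, 1-16, 17-31 and 33-48, each with a run of young and a run of aged oocyte numbers, and each name has the suffix A or none. What blocks and suffix stand for is not given in the labels, so the 6 sets they form are no named batch. These sets were examined after the values were seen. For Anapc10 the ratio, aged over young, was above 0 in 5 of the 6 sets, as for 12.9% of features (5 or 6 sets), and in all 3 blocks (15.8% of features). The largest difference was in set 33-48 with suffix A, where 7 young oocytes had a median of 44.4 CPM (37.6 to 66.4) and 7 aged oocytes a median of 79.8 CPM (48.6 to 119.5), a pooled log2 ratio of 0.81. In the other sets the log2 ratio lay between -0.0091 and 0.38. Without that set the pooled log2 ratio was 0.15, from 43.7 CPM (young) and 48.6 CPM (aged), and no gene of the 10 was past 1.2-fold. The set held 7 aged NSN and 0 aged SN oocytes. Without it the Anapc10 level in aged NSN oocytes was 51.2 CPM against 46 CPM in young NSN oocytes, and the SN over NSN log2 ratio was -0.31 in young and -0.37 in aged oocytes.

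**Figure D3:**
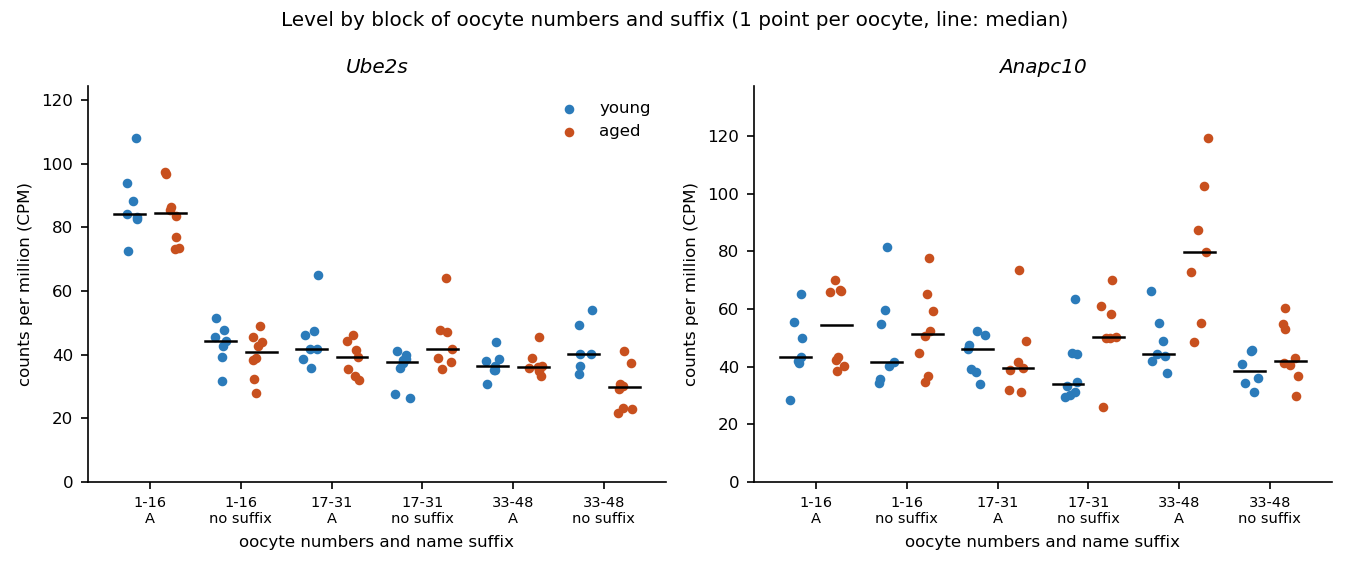
Level of Ube2s (left) and Anapc10 (right) in single oocytes in CPM, by block of oocyte numbers and name suffix, with a line at the median of each age. Ube2s is at 72.6 to 108 CPM in all 15 oocytes of set 1-16 with suffix A and at no more than 65.1 CPM elsewhere, and the highest Anapc10 values are those of aged oocytes in set 33-48 with suffix A.

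Ube2c (TCONS_00058703, chr2:164769783-164772907, plus strand) ranged from 79.5 to 180 CPM in young oocytes (median 119 CPM) and from 55.9 to 190 CPM in aged oocytes (median 108 CPM). Its feature covers the 5′ part of a longer annotated gene span (Jaccard overlap 0.333), whose end lies 5915 bases further on. Pooled levels were 120 CPM (young) and 108.5 CPM (aged), a log2 ratio of -0.15 (-0.18 to -0.11), and 12 of 45 aged oocytes exceeded the young median. It was below 0 in each of the 3 blocks, at -0.011, -0.34 and -0.075, as for 20.3% of features. In SN over NSN the log2 ratio was 0.21 (0.17 to 0.26) in young and 0.15 (0.089 to 0.22) in aged oocytes. The young value fell to 0.062 without young run 17-24, and the aged value to -0.064 without aged run 41-48 and to -0.025 without set 33-48 without suffix.

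Ube2s (TCONS_00092670, chr7:4806682-4812994, minus strand) differed more between sets of oocytes than between ages. Its feature covers the 5′ part of a longer annotated span (Jaccard overlap 0.32), whose end lies 12136 bases further on. The 15 oocytes of set 1-16 with suffix A, 7 young and 8 aged, held 72.6 to 108 CPM, and the other 72 oocytes held 21.6 to 65.1 CPM, so the ranges did not overlap. Within that set the ages were alike, with medians of 84.3 CPM (young) and 84.5 CPM (aged). Such a complete separation of this set from the rest was seen for 0.0484% of features, 6 of 12408, and the other 5 were Gnai2, Odc1, Glrx5 and Cpsf4l, all higher in the set, and Rpgrip1, which was lower (named after their values were seen). For the other 5 sets no feature separated. What the 15 oocytes share besides their names is not given in the labels.

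Over all oocytes the Ube2s level was 47 CPM (young) and 44.6 CPM (aged), a log2 ratio of -0.078 (-0.13 to -0.024), and without the set at 40.7 and 37.6 CPM, a log2 ratio of -0.11. The direction rested on single runs of oocyte numbers: the log2 ratio was 0.16 without young run 1-7 and also without aged run 41-48, and 0.023 without set 33-48 without suffix. Between configurations Ube2s was at 49.7 CPM in young NSN and 40.4 CPM in young SN oocytes, a log2 ratio of -0.30 (-0.38 to -0.22), and at 47.7 CPM in aged NSN and 29.8 CPM in aged SN oocytes, a log2 ratio of -0.68 (-0.80 to -0.55). The set held 6 of 30 young NSN and 8 of 37 aged NSN oocytes but 1 of 12 young and 0 of 8 aged SN oocytes. Without it the log2 ratios were -0.17 in young and -0.41 in aged oocytes, both still below 0, with the first no longer past 1.2-fold and the second no longer past 1.5-fold. The pooled count ratio of Ube2s to Ube2c was 0.433 and 0.303 in young NSN and SN oocytes, and 0.448 and 0.252 in aged NSN and SN oocytes.

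Across the 10 genes, age went with small differences. Of the 10, 2 were higher and 8 lower in aged oocytes, where 47.7% of all features were higher. Fbxo43, counted as lower, was near 0 and kept that sign in 6 of 12 values that each left out a run or set, and Ube2s kept it in 9 of 12. The median log2 ratio over the genes was -0.083, against -0.0072 over all features, whose middle 80% lay between -0.20 and 0.15. No gene passed 1.5-fold (0.701% of features), and for no gene did the 3 aged runs of oocyte numbers lie wholly above or below the 3 young runs, which they did for 13.3% of features. In NSN oocytes 1 gene, Anapc10, was past 1.2-fold (9.93% of features), and in SN oocytes 1, Ube2s, at a log2 ratio of -0.44 (22.7% of features). Without set 1-16 with suffix A, young SN oocytes held 37.5 CPM of Ube2s, against 29.8 CPM in the aged SN oocytes.

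**Figure D4:**
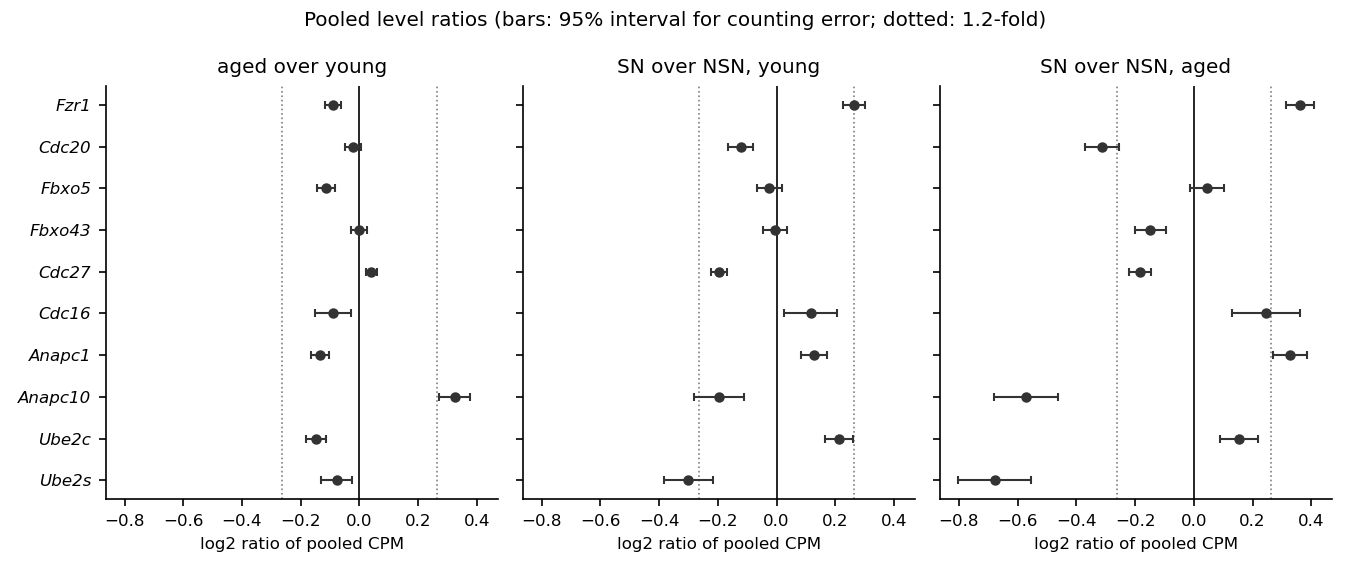
Log2 ratio of pooled CPM for each gene, aged over young (left) and SN over NSN in young (middle) and aged oocytes (right), with 95% intervals that take reads as independent counts and dotted lines at 1.2-fold. Anapc10 at 0.32 is the 1 gene past 1.2-fold between ages, and Fzr1 and Ube2s lie on opposite sides of 0 between configurations at both ages.

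Between configurations the genes spread further. In young oocytes 2 of 10, Fzr1 and Ube2s, were past 1.2-fold in SN over NSN (22.1% of features), though neither was with each oocyte thinned to 900000 counts. In aged oocytes 5 of 10 were (43.5% of features): Fzr1 and Anapc1 upwards, Cdc20, Anapc10 and Ube2s downwards. Ube2s in aged oocytes was the only one past 1.5-fold (12.4% of features). The direction was the same at both ages for 9 of 10 genes, all but Fbxo5, and for 78.1% of features. On leaving out a run or set, Fbxo43 in young oocytes kept its sign in 4 of 9 values (-0.16 to 0.090) and Ube2c in aged oocytes in 7 of 9. In 5 of 10 genes all 8 aged SN oocytes lay on the same side of the aged NSN median, as they did for 20.9% of features. The shares past a fold were near those of all features, and no more than a description can be read from them, since the prediction of configuration drew on these libraries and whether any of the 10 genes took part in the prediction is not known. The 9 oocyte markers also differed: 8 were higher in SN at each age, with median log2 ratios of 0.31 in young and 0.51 in aged oocytes. Their part in these ratios was not tested.

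The spread over single oocytes was larger in the aged group for 9 of 10 genes, as it was for 74.0% of features. Spread was measured as the squared coefficient of variation less the part due to counting. The paper took aged oocytes from more mice, and over a wider range of ages, than young ones. Differences between mice can be part of this spread, and their share was not tested. The log2 ratio of this spread, aged over young, had a median of 0.53 over the genes and of 0.45 over all features. Cdc16 had the largest ratio at 1.42 (0.0321 in aged against 0.0120 in young oocytes), followed by Anapc1 at 1.09, Anapc10 at 1.02, Fbxo5 at 0.92 and Ube2c at 0.78. This order was not fixed. On leaving out a set the ratio was 0.88 to 2.06 for Cdc16, 0.91 to 1.43 for Anapc1 and 0.015 to 1.55 for Anapc10. The ratio of Fbxo5 was 0.089 without set 17-31 without suffix. Cdc20 was the exception at -0.13, with 0.0281 in aged and 0.0307 in young oocytes, but its ratio was 0.39 without set 1-16 without suffix, 0.16 without set 33-48 with suffix A and 0.19 with all 88 oocytes. The count of genes with the larger spread in aged oocytes was 7 to 10 on leaving out a set (7 without set 33-48 without suffix). Fbxo43 was the steadiest of the genes in aged oocytes, at percentile 9.7 of all features there and 14 in young, and Cdc16 in young oocytes, at percentile 7.9. Ube2s varied most, at percentile 88.8 in aged and 91.8 in young oocytes, but without set 1-16 with suffix A its spread was 0.0361 in aged against 0.174 with it, and 0.0262 in young against 0.156. Without set 33-48 with suffix A the median ratio over the genes was 0.19, against 0.39 over all features, and that of Anapc10 was 0.015.

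**Figure D5:**
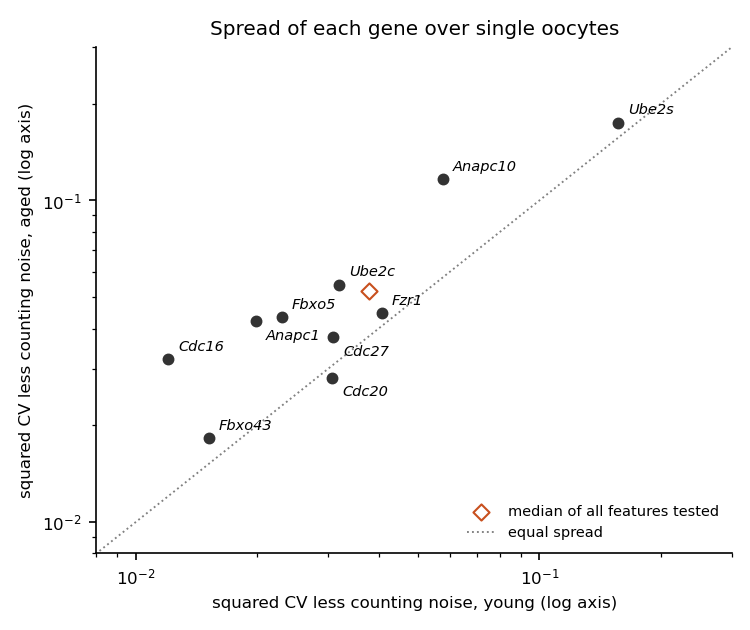
Spread of each gene over single oocytes, as the squared coefficient of variation less counting noise, in aged (vertical) against young oocytes (horizontal), both on log axes, with the median over all features as a diamond and a dotted line of equal spread. All genes but Cdc20 lie above the line, and Ube2s lies at the top right with 0.156 in young and 0.174 in aged oocytes.

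The 10 genes did not move as 1 group from oocyte to oocyte. Over 87 oocytes the Spearman correlations of the 45 pairs ran from -0.697 to 0.599 with a median of 0.018, and 23 were above 0. Fzr1 and Ube2c had the highest value, 0.599, and each was negatively related to Cdc27, at -0.697 and -0.687. The coactivators Fzr1 and Cdc20, which differed in opposite directions between configurations, had 0.026. In NSN oocytes alone they had 0.196 (young) and 0.239 (aged). Of the named protein-coding features that averaged 100 or more counts per oocyte, the one most like each gene was Padi6, itself an oocyte marker, for Fzr1 (0.726), Fbh1 for Cdc20 (0.712), Atp5f1 for Fbxo5 (0.667), Trim60 for Fbxo43 (0.685), Kdm6a for Cdc27 (0.774), Ttc17 for Cdc16 (0.471), Cep192 for Anapc1 (0.711), Ndufab1 for Anapc10 (0.748), Cct3 for Ube2c (0.728) and Fam220a for Ube2s (0.78). In the 67 NSN oocytes alone these values were 0.462 to 0.794. All are correlations of CPM that share the library and its total count, and they are given as descriptions.

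The wider machinery differed little with age, as did most features. Over all features 47.7% were higher in aged oocytes and 8.13% were past 1.2-fold in either direction. Of 10 other APC/C subunits 9 were found, 6 higher and 3 lower in aged oocytes with a median log2 ratio of 0.041, and none past 1.2-fold. The most abundant per kilobase in young oocytes were Anapc5 at 61.1, Anapc7 at 55.8 and Anapc4 at 55 CPM per kb, near Fzr1. Cdc26, a small subunit that stabilises CDC16, was lower in SN oocytes, by a log2 ratio of -0.44 in young and -0.67 in aged oocytes. Of 9 substrates 7 were higher and 2 lower in aged oocytes with a median of 0.035. Per kilobase the most abundant of them were securin (Pttg1), at 972 CPM per kb in young and 1050 in aged oocytes, cyclin B1 (Ccnb1), at 501 and 520 CPM per kb, and the chromosome motor gene Kif22, at 180 and 184 CPM per kb. The levels of the substrates reached down to 19.2 CPM per kb in young oocytes (Ccnb3) and so overlapped with those of the 10 genes.

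Of 14 genes of the metaphase II arrest and its release 12 had a mean count of at least 10, and 10 were higher and 2 lower in aged oocytes with a median of 0.044, none past 1.2-fold. Beside this and the next lists, 47.7% of all features were higher and 8.13% were past 1.2-fold. Skp1a and Cul1, which encode parts of the SCF ubiquitin ligase, were at 1770 and 339 CPM per kb in young oocytes, and Mos, the kinase of the cytostatic pathway upstream of EMI2, was at 569 in young and 598 in aged oocytes. Of 6 genes of the mitotic checkpoint complex and separase 1 was higher and 5 were lower in aged oocytes, with a median of -0.048, and Bub1b led them at 355 and 353 CPM per kb, before Ttk at 111 and Bub3 at 72.6 CPM per kb in young oocytes. Of 7 deubiquitinases and other modifiers of the APC/C 6 had a mean count of at least 10, and 4 were higher and 2 lower with a median of 0.083. The most abundant of these per kilobase in young oocytes were Cks2, Cks1b and Usp37, at 323, 170 and 56.1 CPM per kb. Among genes of these lists with a mean count of at least 10, Otud7b was the 1 gene past 1.2-fold between ages. It was at 5.65 CPM (young) and 4.50 CPM (aged), a log2 ratio of -0.33. Otud7b and the phosphatase gene Cdc14b were also higher in SN than NSN, by log2 ratios of 0.72 and 0.55 in young and 1.43 and 1.10 in aged oocytes, at mean counts of 14.5 and 42.5 per oocyte.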

How the data were processed

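The RNA libraries of a joint RNA and methylation assay of single GV oocytes (scM&T-seq) were used. The deposited values are raw counts. The authors obtained them from single-end reads by trimming, HiSat2 alignment to GRCm38 and counting of primary alignments on the features of an oocyte transcriptome. The counting program and its strand setting are not given in the sources used here. No column of another series was present.

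Age groups came from the labels and configurations from the study's table of samples. Names came from the part of the study's list of names in hand, 1998 rows, and otherwise from GENCODE M21 by a Jaccard overlap of spans of at least 0.3. 3 genes were named by the list and 7 by GENCODE. Counts were summed per group and divided by summed totals. Intervals are exact (Poisson, and conditional binomial for ratios, 95%). Features with a mean count of at least 10 over the 87 oocytes formed the background. Spread was also taken after thinning each oocyte to 900000 counts. TMM factors came from edgeR 4.0.16 in R 4.3.3, the rest from Python 3.11.15 with numpy 2.4.6, pandas 2.3.3 and scipy 1.17.1. The statistics were tested on simulated data.

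The 10 genes and the lists were chosen with earlier results of these data known. All 10 genes are named. Listed genes other than cell markers, with a mean count of at least 10, are named when past 1.5-fold in a comparison or among at most the 3 most abundant per kilobase. For each of the 10 genes the 1 feature with the highest Spearman correlation is named. The 5 features that separate set 1-16 with suffix A were named after their values were seen. Alternatives covered scaling, depth, summary, oocytes, suffix, runs and configuration. The methylation data were not used here.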

Additional observations from a re-analysis of the deposited data

Results flagged for a closer look

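Groups of 4 to 10 oocytes were examined for an oocyte far from the rest, which applied to the 8 aged SN oocytes and the 10 genes. Oocyte 26A was flagged for Fbxo5, at 196.7 CPM where the other 7 lay between 135.7 and 158.3 CPM, because its gap to the nearest of the others was 0.629 of the whole range, over the limit of 0.526. Chance flags about 1 in 20 groups, and 10 genes were examined.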

How the results depend on the processing

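No paired analysis was possible because young and aged oocytes share no number in the labels. Between ages, the median over the 10 genes stayed below 0 under each of the 23 alternatives (-0.13 to -0.035, main value -0.083). The count of genes past 1.2-fold, 1 in the main values, was 0 with the ratio of medians over oocytes and 0 with only oocytes without suffix; leaving out a run or set of oocytes gave 0 to 2 (2 without aged run 9-16). Anapc10 turned to -0.020 in SN oocytes alone. The share of features past 1.2-fold was 38.9% with no filter on low counts and 2.65% at a mean count of at least 100, and past 1.5-fold 21.6% and 0.112%. In SN over NSN, young, the count past 1.2-fold was 1 with TMM factors, 1 with median of ratios size factors, 0 after thinning and 0 with medians, and 1 to 5 on leaving out a run or set (5 without young run 33-39). In SN over NSN, aged, it was 4 to 8 on leaving out a run or set (8 without aged run 9-16), and the count past 1.5-fold was 2 with TMM or median of ratios factors and 0 with medians. The median ratio of spread was 0.82 with all 88 oocytes, 0.75 in NSN only and 0.29 with the SD of log2 CPM, and 0.19 to 0.64 on leaving out a set. The spread ratio of Fbxo43 turned to -0.029 after thinning and -0.064 without set 33-48 with suffix A (-0.064 to 0.47 over the sets). The cause was not tested. For SN over NSN, all 88 oocytes were not run, as the 88th has no configuration. Blocks and sets were added after seeing the data. The limits are the unnamed mice, the predicted configuration, and counts of about 98.5 per oocyte for Cdc16.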
